A study of Mus musculus with 9 samples.

Results

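Kinesins are motor proteins that use ATP to move along microtubules or to take them apart. The genes described here are those of the mouse kinesin motors and of the kinesin light chains, taken by gene symbol (Kif followed by a digit or c, and Klc1 to Klc4), without Kif3a, Kif3b and Kif3c, the motors of transport inside cilia. The rule found 48 annotated genes, of which 39 were among the 14477 genes of the expression table. Kif2b, Kif12, Kif27, Kif28, Klc3, the antisense gene Kif16bos and the pseudogenes Kif4-ps, Kif22-ps and Kifc5c-ps had no row and were not analysed here. The table holds only genes above 1 CPM in at least 3 libraries, so the 39 are not all kinesins of these cells. The members were sorted by role into 13 spindle motors, 12 cargo motors, 3 light chains, 5 kinesins of cilia and 6 others.

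RNA was sequenced from cells of adult mice of the strain B6.Cg-Tg(Nes-EGFP)1Yamm, which carry a green fluorescent protein driven by Nestin regulatory sequence, active in neural precursors. Fluorescent cells were sorted from the dentate gyrus of the hippocampus (DG, n = 5 libraries) or from the subventricular zone beside the lateral ventricle (SVZ, n = 4 libraries). All mice were untreated and kept in standard housing. The labels give neither an age in weeks nor whether a library came from 1 animal or a pool, so each p-value reflects library-to-library spread alone, and that spread may be technical. Levels are log2 CPM (a library's reads scaled to its total, with a prior count of 1 read). A positive log2 fold change means higher in DG. Its standard error (SE) and adjusted p come from limma over all 14477 genes. Library totals were 31126803 to 41164044 reads, and the members had 10 to 21045 reads per library.

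Dividing cells need kinesins to build and work the mitotic spindle: some slide microtubules apart to separate the poles, some shorten microtubule ends at the chromosomes, and some organise the midzone where the cell is pinched off. Cells that do not divide, neurons above all, use other kinesins to carry vesicles, mitochondria and receptors outwards along microtubules. The heavy chains Kif5a, Kif5b and Kif5c join light chains (Klc) that bind cargo. Further kinesins set the length or beating of cilia, such as those of the ependymal cells that line the ventricle next to the SVZ. Both regions hold dividing precursors, and the SVZ also holds many migrating neuroblasts.

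The sorted cells were labelled as Nestin-positive precursors, and markers of other cell types were detected in every library. Nes stood at 5.89 to 6.99 log2 CPM in DG and at 6.87 to 7.61 in SVZ, and was lower in DG (-0.95, adjusted p = 0.00238). The summed level of 6 precursor markers, Nes, Mki67 and Top2a among them, was 634.3 to 883.2 CPM in DG and 2117 to 2383 CPM in SVZ, with 5 of the 6 lower in DG. The summed level of 7 pericyte markers was 5192 to 10870 CPM in DG against 65.6 to 150.0 CPM in SVZ, and that of 7 endothelial markers was 424.7 to 959.9 against 4.02 to 27.1 CPM. The 7 markers of each list were all higher in DG and none was at 0 reads in any library. The 6 neuroblast markers were all lower in DG, with sums of 4888 to 7249 CPM against 17360 to 20560 CPM. The 7 ependymal markers were also all lower in DG, with sums of 16.4 to 33.5 CPM against 109.0 to 284.1 CPM. In libraries of sorted cells, fewer cells of a type and less RNA per cell cannot be told apart, and the part of these cell types in the results below was not tested.

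Before the values, the start regions of some members are shown. The printed genes were picked by short sequences given below, so that they share these follows from the choice. The sorting into roles did not use the sequences, and a link between them and the levels was not tested. RefSeq start windows (GRCm38.p6, 250 bases before to 50 after a start, 300 in all) matched 29 of the 39 members. Kif5a, Kif5b, Kif13b, Kif19a, Kif1bp, Kif20a, Kif21b, Kifc2, Kifc3 and Klc2 had none. The letters TTTGAA, known as the core of the cell cycle homology region that lies at the start of many genes of mitosis, were searched on both strands (TTTGAA or TTCAAA), as was CCAAT (or ATTGG), the box bound by the factor NF-Y. The stretches below run 5′ to 3′ from 100 bases before the start to 30 bases after it, with both motifs in capitals. The first 8 are the spindle motors with TTTGAA in that stretch. Kif26b follows as a gene with both motifs that is no spindle motor, and Kif5c as a cargo motor with neither.

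Kif11: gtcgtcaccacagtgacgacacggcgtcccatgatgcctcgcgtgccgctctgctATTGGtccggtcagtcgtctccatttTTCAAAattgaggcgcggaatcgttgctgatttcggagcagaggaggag
Kif15: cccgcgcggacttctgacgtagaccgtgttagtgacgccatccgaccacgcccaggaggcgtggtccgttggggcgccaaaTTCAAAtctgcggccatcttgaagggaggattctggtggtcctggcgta
Kif22: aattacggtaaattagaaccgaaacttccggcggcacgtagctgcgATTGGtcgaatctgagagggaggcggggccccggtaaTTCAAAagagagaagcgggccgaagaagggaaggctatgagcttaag
Kif4: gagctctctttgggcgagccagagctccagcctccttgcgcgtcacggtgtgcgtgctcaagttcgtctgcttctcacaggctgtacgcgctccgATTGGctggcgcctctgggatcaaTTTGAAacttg
Kif23: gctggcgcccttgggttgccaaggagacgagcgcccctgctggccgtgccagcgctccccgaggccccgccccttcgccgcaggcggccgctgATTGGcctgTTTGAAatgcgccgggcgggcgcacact
Kif18b: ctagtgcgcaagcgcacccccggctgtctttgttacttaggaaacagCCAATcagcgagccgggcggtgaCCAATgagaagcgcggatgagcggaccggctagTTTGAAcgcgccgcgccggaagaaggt
Kif20b: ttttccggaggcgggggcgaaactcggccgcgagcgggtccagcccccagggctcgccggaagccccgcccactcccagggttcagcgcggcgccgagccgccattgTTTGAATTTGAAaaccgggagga
Kifc1: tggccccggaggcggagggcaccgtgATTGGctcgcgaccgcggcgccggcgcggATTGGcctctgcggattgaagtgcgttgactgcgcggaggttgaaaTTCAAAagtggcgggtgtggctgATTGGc
Kif26b: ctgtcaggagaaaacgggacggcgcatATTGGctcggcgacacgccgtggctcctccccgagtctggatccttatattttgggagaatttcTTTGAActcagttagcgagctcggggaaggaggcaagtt
Kif5c: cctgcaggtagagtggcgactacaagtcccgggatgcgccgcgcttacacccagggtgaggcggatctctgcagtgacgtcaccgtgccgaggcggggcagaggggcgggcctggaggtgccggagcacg

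On GRCm38.p6 these stretches lie at Kif11 chr19:37376282-37376411 (plus strand), Kif15 chr9:122950981-122951110 (plus strand), Kif22 chr7:127042391-127042520 (minus strand), Kif4 chrX:100625965-100626094 (plus strand) and Kif23 chr9:61946770-61946899 (minus strand). The others are Kif18b chr11:102925095-102925224 (minus strand), Kif20b chr19:34922258-34922387 (plus strand), Kifc1 chr17:33890604-33890733 (minus strand), Kif26b chr1:178529025-178529154 (plus strand) and Kif5c chr2:49619186-49619315 (plus strand). Counted from the first transcribed base as 1, the TTTGAA match began at -19 in Kif11, -19 in Kif15 and -17 in Kif22. It began at 2 in Kifc1, 3 in Kif23, 4 in Kif18b and 20 in Kif4, and Kif20b had adjoining matches at 8 and 14. These positions hold only for the RefSeq starts. For Kif11, Kif23, Kif20b and Kif5c no GENCODE transcript held the first 20 transcribed bases. The Kif4 stretch lies inside the annotated gene, which begins at 100625737. Of the 12 spindle motors with a window, 11 held TTTGAA somewhere in the 300 bases, where 17.9% of all 32851 windows did. In the printed span it was 8 of 12, against 7.15% of all windows. That span was chosen after the positions were seen. A member counted when any of its windows matched, whereas the shares here and below are of single windows. A member with more than 1 start thus had more chances of a match. The motif was also in the window of 1 of 7 cargo motors (Kif1a, at a second start), 0 of 2 light chains, 0 of 4 ciliary kinesins and 1 of 4 others (Kif26b). CCAAT stood in 8 of 12 spindle windows and in 37.4% of all windows, and both motifs in 8 of 12 and in 6.95%. Kif18a was the spindle motor whose window held neither. The windows of Kif14 and Kif2c had TTTGAA farther from the start, beginning at -228 and -103, and that of Kifc5b had it at 30. Kifc5b is a copy of Kifc1, and its window held the same matches at a shift, with ATTGG at -46 and -17 against -74 and -45. The counts of spindle motors take this pair as separate genes. The matches are descriptions of letters, and no binding was measured.

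All 13 spindle motors were lower in DG, by 2.32-fold to 3.31-fold. Over all genes 66.6% passed the same threshold of adjusted p under 0.05, 33.7% lower in DG and 32.9% higher. Every DG library lay below every SVZ library for each of the 13. Over all genes, 58.0% had regions without overlap, 28.3% with DG below and 29.7% with DG above. Of all 39 members, 23 were lower in DG, 5 were higher and 11 did not pass. The median log2 fold change was -1.47 among spindle motors and -0.07 among all genes. The members differed little in the size of the change, which ran from -1.73 to -1.21 while their levels ranged widely.

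**Figure D1:**
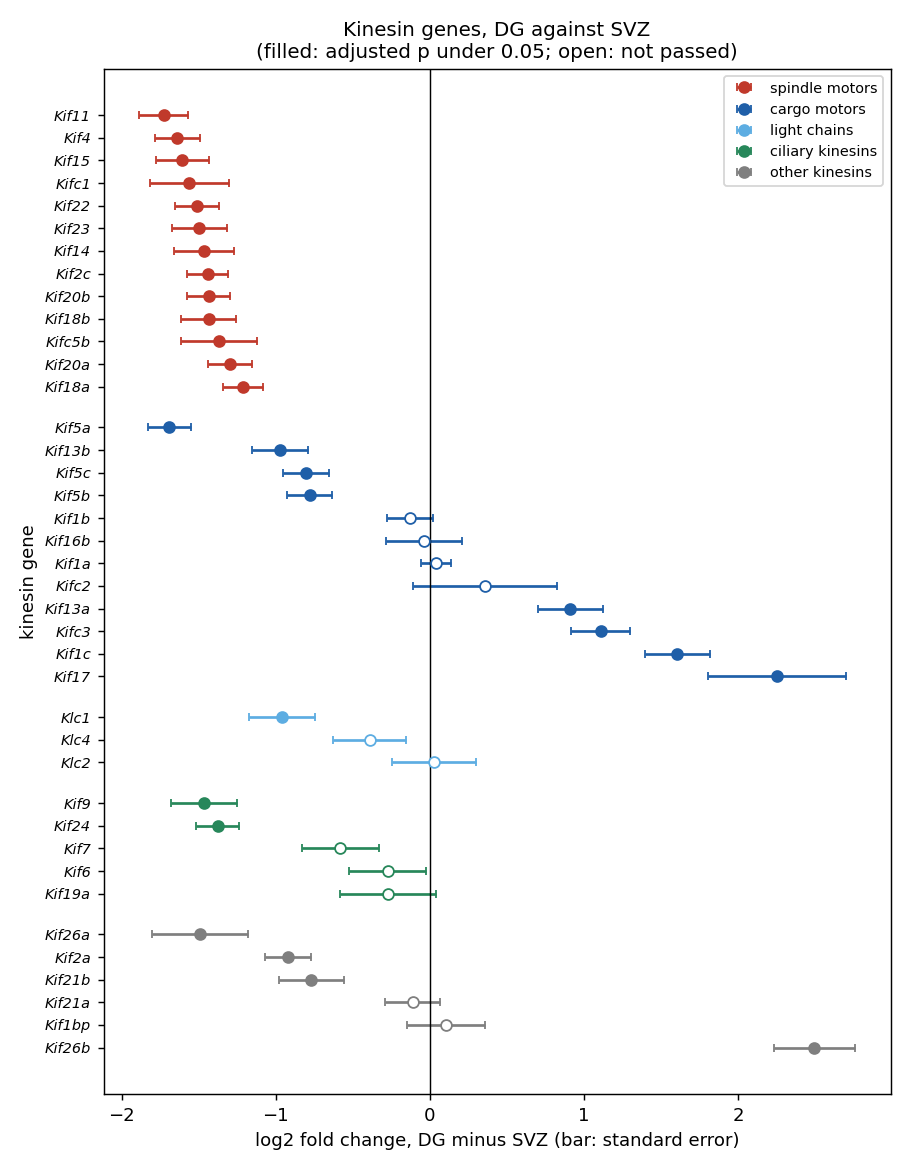
Log2 fold change (DG minus SVZ, horizontal axis) of the 39 kinesin genes with its standard error, grouped by role. Filled points passed the test and open points did not. The 13 spindle motors lie together between -1.73 and -1.21, whereas cargo motors run from -1.69 to 2.25.

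Kif11 (Eg5, chromosome 19, 37376403 to 37421859, mm10) slides antiparallel microtubules apart and separates the spindle poles. Its level in DG was 5.97, 5.29, 5.88, 6.09 and 5.76 log2 CPM in libraries 1 to 5, and in SVZ it was 7.58, 7.77, 7.43 and 7.34 in libraries 1 to 4. DG 2 was the lowest library, and the highest DG library stayed well under the lowest SVZ library. The difference was -1.73 (SE 0.16, limma adjusted p = 3.15e-06). Kif15, which can keep spindle poles apart when Kif11 fails, stood at 4.54, 3.90, 4.41, 4.88 and 4.25 in DG and at 6.04, 6.11, 5.87 and 6.0 in SVZ. The SVZ libraries were close together, and the difference was -1.61 (SE 0.17, adjusted p = 1.05e-05).

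The chromokinesins bind chromosome arms as well as microtubules. Kif4 (chromosome X, 100625737 to 100727214) stood at 5.33, 4.77, 5.29, 5.56 and 5.24 log2 CPM in DG and at 7.01, 6.95, 6.80 and 6.75 in SVZ, a difference of -1.64 (SE 0.14, adjusted p = 2.46e-06). DG 2 was again the lowest. Of the exon bases of Kif4, 15.1% overlap Pdzd11 on the opposite strand, and reads without strand information cannot be told apart there. Kif22, the other chromokinesin, had a difference of -1.51 (SE 0.14, adjusted p = 4.11e-06).

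Kifc1, a motor that walks to the minus end and gathers spindle poles, was among the low members, at 2.15, 1.49, 1.70, 1.62 and 1.57 log2 CPM in DG and 3.12, 3.40, 2.64 and 3.91 in SVZ. The difference was -1.56 (SE 0.26, adjusted p = 0.000267). Its copy Kifc5b differed by -1.37 (SE 0.25, adjusted p = 0.000494). The values of this gene pair are uncertain, since 39.7% of the 50-base words of Kifc1 transcripts and 37.4% of those of Kifc5b also occur in transcripts of other genes, each other among them.

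The remaining spindle motors moved by similar amounts. At microtubule ends, the depolymerase Kif2c differed by -1.44 (adjusted p = 3.21e-06), Kif18a, which restrains chromosome movements, by -1.21 (adjusted p = 9.13e-06) and Kif18b by -1.43 (adjusted p = 3.26e-05). In cytokinesis, the midzone motor Kif20a differed by -1.30, Kif20b by -1.44, the centralspindlin motor Kif23 by -1.50 and Kif14 by -1.47, with adjusted p from 5.29e-06 to 5.84e-05. Cdc23, on the opposite strand, overlaps 29.3% of the exon bases of Kif20a.

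Most of these genes shared their lowest and their highest DG library. DG 2 had the lowest DG value for 11 of 13 spindle motors, the exceptions being Kif18a and Kif20b, and DG 4 had the highest for 9 of 13. In SVZ, library 2 was highest for 8 of 13. How often these libraries were lowest or highest over all genes was not counted. The proliferation gene Mki67 also had its lowest value in DG 2, at 5.97 log2 CPM, and its highest DG value in DG 4, at 6.67. Mki67 differed more between the regions than any spindle motor, by -2.14 (adjusted p = 1.08e-06). The log2 ratio of Kif20a to Mki67 within a library was -0.37 to 0.14 in DG and -1.48 to -0.49 in SVZ, and for Kif11 it was -0.67 to -0.41 in DG and -1.36 to -0.48 in SVZ. These ratios were not tested.

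Partners of the spindle motors from a list of 22 genes were lower in DG in 21 cases and higher in 0, where 33.7% of all genes were lower and 32.9% higher. Their median log2 fold change was -1.30. Nusap1, which bundles spindle microtubules, had the smallest adjusted p (-1.85, SE 0.15, adjusted p = 1.60e-06), followed by Cdca8, a subunit of the chromosomal passenger complex (-1.53, SE 0.14, adjusted p = 2.84e-06). Cenpe, a kinetochore kinesin that the symbol rule does not take, differed by -1.68 (SE 0.18, adjusted p = 1.17e-05). The gene that did not pass was Racgap1, the partner of Kif23 in centralspindlin, at -0.71 (adjusted p = 0.0514), named here after its values were seen. It stood at 6.24 to 7.81 in SVZ and 5.78 to 6.61 in DG. Leaving out DG 1, SVZ 1 or SVZ 4 in turn gave adjusted p = 0.0434, 0.0405 and 0.0145, each past the threshold. Other settings moved it away: leaving out DG 2 or DG 5 gave adjusted p = 0.107 and 0.106. With the replicate number as a block it was 0.167. No SVZ library has the number 5, so the block gave the same difference as leaving out DG 5 (-0.62).

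Cargo motors did not share a direction. Of 12, 4 were lower in DG, 4 were higher and 4 did not pass, where 33.7% of all genes were lower and 32.9% higher, so the members' shares (33.3% each) were near those of the table. The median log2 fold change was 0.00. The Kif5 genes were all lower, whereas Kif13a and Kif13b went opposite ways.

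The conventional kinesin heavy chains were lower in DG. Kif5a (chromosome 10, 127225696 to 127263348), a heavy chain of neurons, stood at 7.60, 7.62, 7.91, 7.50 and 7.12 log2 CPM in DG and at 9.13, 9.32, 9.38 and 9.13 in SVZ. The groups were far apart, with a difference of -1.69 (SE 0.14, adjusted p = 1.44e-06). Kif5b, the heavy chain of most tissues, stood at 5.96 to 6.60 in DG and 6.91 to 7.42 in SVZ (-0.78, SE 0.14, adjusted p = 0.000601). Kif5c, also neuronal, stood at 6.13 to 6.66 in DG and 6.82 to 7.47 in SVZ (-0.81, SE 0.15, adjusted p = 0.000647). The balance among them differed too. The log2 ratio of Kif5a to Kif5b within a library was 1.09 to 1.32 in DG and 1.91 to 2.48 in SVZ, and that to Kif5c was 0.99 to 1.30 in DG and 1.65 to 2.50 in SVZ. The neuroblast gene Dcx differed by -2.24 in the same libraries.

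Of the light chains, 1 of 3 was lower in DG (33.3%), a share near the 33.7% of all genes. Klc1 stood at 4.39, 4.16, 4.5, 4.16 and 3.57 log2 CPM in DG and at 4.70, 5.57, 5.04 and 5.16 in SVZ (-0.96, SE 0.21, adjusted p = 0.00207). DG 5 was the lowest and SVZ 1 the nearest of its group to DG. Klc4 did not pass, at 5.31, 4.94, 4.99, 5.03 and 4.52 in DG and 5.49, 5.76, 5.60 and 4.55 in SVZ (-0.39, SE 0.24, adjusted p = 0.163). SVZ 4 lay below most DG libraries, and without it Klc4 passed (-0.66, adjusted p = 0.00584). Without DG 5 the difference was smaller (-0.28, adjusted p = 0.314). Klc2 was low and overlapped between the regions, at 1.47 to 2.54 in DG and 1.69 to 2.57 in SVZ. DG 5 had the lowest DG value for all 6 genes of the conventional motor, Kif5a, Kif5b, Kif5c, Klc1, Klc2 and Klc4. It was lowest for 7 of 12 cargo motors, the Kif5 genes among them, 2 of 6 other kinesins and 1 of 13 spindle motors. How often DG 5 was lowest over all genes was not counted.

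Kif1a and Kif1b did not pass. Kif1a, which carries precursors of synaptic vesicles, stood at 8.67, 8.56, 8.75, 8.68 and 8.52 log2 CPM in DG and at 8.82, 8.5, 8.67 and 8.40 in SVZ. The groups overlapped (0.04, SE 0.10, adjusted p = 0.722). Kif1b, a carrier of mitochondria and vesicle precursors, stood at 7.77, 7.79, 8.04, 7.81 and 7.79 in DG and at 8.16, 7.58, 7.75 and 8.39 in SVZ (-0.13, SE 0.15, adjusted p = 0.463). Its SVZ libraries lay on both sides of the DG libraries. Kif16b, an early endosome motor, had a difference of -0.04 (SE 0.25, adjusted p = 0.896). Kifc2 varied most of all within DG, from 1.59 in DG 5 to 4.12 in DG 3, and had a difference of 0.36 (SE 0.47, adjusted p = 0.513). DG 3 had the highest DG value for 9 of 12 cargo motors, and the share over all genes was not counted. The summed level of 7 neuron markers was 779.0 to 1247 CPM in DG, highest in DG 3, and 1407 to 1730 CPM in SVZ. Of these markers 1 was higher in DG, 2 were lower and the rest did not pass. The part of neurons was not tested.

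The cargo motors higher in DG had low levels. Kif17 (chromosome 4, 138250435 to 138301967), which moves NMDA receptor subunits in dendrites and is also found in cilia, stood at 2.19, 1.53, 2.64, 2.61 and 2.06 log2 CPM in DG and at -1.55, 0.53, 0.80 and 0.02 in SVZ. SVZ 1, with 10 reads, was the lowest, and no SVZ library reached the DG range. The difference was 2.25 (SE 0.45, adjusted p = 0.00100), and 1.76 without SVZ 1 (adjusted p = 0.000747). Kif1c stood at 2.44, 2.76, 2.95, 2.98 and 2.32 in DG and at 0.89, 0.94, 1.36 and 1.15 in SVZ (1.61, SE 0.21, adjusted p = 5.26e-05). The lowest DG library, DG 5, was well above SVZ 3, the highest of SVZ.

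Kifc3, a minus-end motor known from epithelial cells, stood at 2.80, 2.62, 3.21, 2.67 and 2.64 log2 CPM in DG and at 1.57, 1.55, 1.93 and 1.68 in SVZ (1.11, SE 0.19, adjusted p = 0.000343). The regions did not overlap for this gene. Kif13a, an endosome motor, was higher in DG (0.91, SE 0.21, adjusted p = 0.00263), with 3.80 to 4.16 in DG against 2.57 to 3.73 in SVZ. SVZ 4 came closest to the DG range. Kif13b, its relative, was lower in DG (-0.97, SE 0.18, adjusted p = 0.000632), with 2.54 to 3.16 in DG against 3.64 to 4.07 in SVZ. The log2 ratio of Kif13a to Kif13b was 0.86 to 1.59 in DG and -1.16 to -0.10 in SVZ, so Kif13a had more reads than Kif13b in every DG library and fewer in every SVZ library. Kif17, Kif1c, Kifc3 and Kif13a rose in DG, where the endothelial and pericyte marker sums were also higher. The summed level of 6 astroglial markers was 16480 to 24990 CPM in DG and 1715 to 3337 CPM in SVZ, and that of 5 oligodendrocyte precursor markers was 667.9 to 1579 and 31.8 to 105.0 CPM, with all of both lists higher in DG. The part of those cells was not tested.

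**Figure D2:**
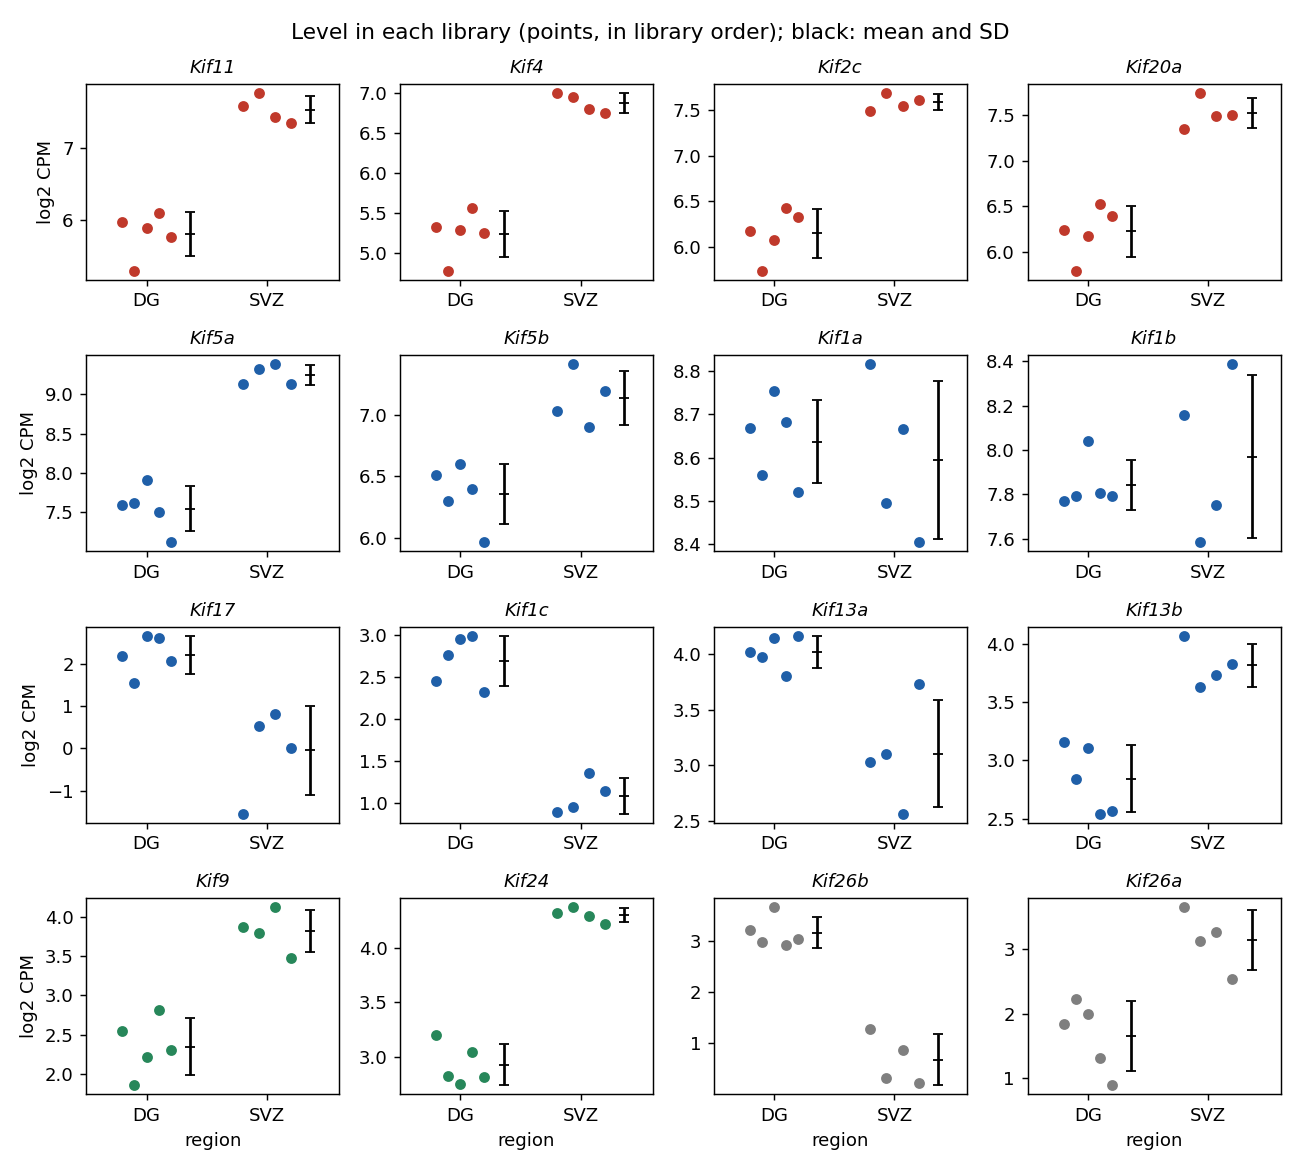
Level of 16 kinesin genes in each DG (n = 5) and SVZ (n = 4) library, in log2 CPM on the vertical axis of each panel, with the group mean and SD in black beside the points. The regions are apart for the spindle motors of the top row and overlap for Kif1a and Kif1b.

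Of 21 measured cargo adaptors, 4 were higher in DG, 4 were lower and 13 did not pass (median -0.16). These are 19.0% in each direction, where 32.9% of all genes were higher and 33.7% lower. Sybu, which links Kif5 motors to mitochondria and synaptic vesicle cargo, was higher in DG (1.76, SE 0.13, adjusted p = 5.57e-07), as was the mitochondrial adaptor Trak1 (0.70, SE 0.09, adjusted p = 5.09e-05). Grip1, which steers Kif5 to dendrites with glutamate receptors, was lower in DG (-3.26, SE 0.39, adjusted p = 2.39e-05), and so was the scaffold Spag9 (-1.21, SE 0.12, adjusted p = 8.19e-06). Grip1 ranged from 1.43 in DG 4 to 3.89 in DG 2, under 5.70 to 6.19 in SVZ.

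Dynein, the motor that runs against most kinesins, and its activator dynactin were lower in DG in 10 of 20 listed genes, higher in 1 and did not pass in 9 (median -0.26). These are 50% lower and 5% higher, where all genes had 33.7% and 32.9%. The 1 higher gene was Dynlt3, a light chain (1.26, SE 0.10, adjusted p = 9.97e-07). Of the lower ones, the intermediate chain Dync1i2 (-0.50, SE 0.07, adjusted p = 9.13e-05) and the light intermediate chain Dync1li2 (-0.73, SE 0.11, adjusted p = 0.000179) had the smallest adjusted p.

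Of 5 kinesins of cilia, 2 were lower in DG (40.0%), 0 were higher and 3 did not pass. Over all genes 33.7% were lower and 32.9% higher, so the lower share was near that of the table. Kif9 (chromosome 9, 110476958 to 110525179), a motor of motile cilia, stood at 2.55, 1.86, 2.21, 2.81 and 2.31 log2 CPM in DG and at 3.87, 3.79, 4.12 and 3.48 in SVZ (-1.47, SE 0.22, adjusted p = 0.000114). SVZ 3 was its highest library and SVZ 4 its lowest SVZ library, and the ependymal marker sum was also highest in SVZ 3 (284.1 CPM) and lowest among SVZ libraries in SVZ 4 (109.0 CPM). The log2 ratio of Kif9 to the ependymal factor Foxj1 was 2.54 to 3.83 in DG and 0.90 to 2.89 in SVZ, with overlap. Kif24, which holds back cilium formation at the centriole of cycling cells, stood at 3.20, 2.82, 2.75, 3.04 and 2.81 in DG and at 4.32, 4.37, 4.29 and 4.22 in SVZ (-1.38, SE 0.14, adjusted p = 7.26e-06). Its SVZ libraries lay close together and apart from DG.

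The other ciliary kinesins did not pass. Kif6, also of motile cilia, stood at 2.50 to 2.96 log2 CPM in DG and 2.26 to 3.62 in SVZ (-0.27, adjusted p = 0.347), with SVZ 4 the lowest of the 9 libraries. Without SVZ 4 it passed (-0.51, adjusted p = 0.0477), whereas without SVZ 1 the difference was -0.06 (adjusted p = 0.833). Kif7, the hedgehog regulator at the cilium tip, differed by -0.58 (adjusted p = 0.0588). It passed without DG 2 (adjusted p = 0.0480) and in a fit without the mean-variance trend (adjusted p = 0.0213). It was farther from the threshold without DG 4 (adjusted p = 0.131) and with the replicate number as a block (adjusted p = 0.16). Its exons overlap other genes, Ticrr among them, over 20.3% of their bases. Kif19a, which limits cilium length, had 23 to 57 reads per library and a difference of -0.27 (adjusted p = 0.454). Against Foxj1, the log2 ratio of Kif6 was 2.72 to 4.14 in DG and -0.33 to 1.67 in SVZ, and that of Kif19a was 0.41 to 1.78 in DG and -2.62 to -0.33 in SVZ, both without overlap.

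Among the other members, the atypical kinesins Kif26a and Kif26b went opposite ways. Kif26b (chromosome 1, 178529125 to 178939200) stood at 3.22, 2.99, 3.67, 2.94 and 3.04 log2 CPM in DG and at 1.29, 0.32, 0.88 and 0.22 in SVZ. With 2.50 (SE 0.26, adjusted p = 9.32e-06), a 5.64-fold difference, it had the largest rise in DG of the 39 members. Kif26a stood at 1.83, 2.23, 1.99, 1.31 and 0.89 in DG and at 3.65, 3.12, 3.26 and 2.53 in SVZ (-1.49, SE 0.31, adjusted p = 0.00135). DG 2 came nearest to SVZ 4 for this gene. The log2 ratio of Kif26b to Kif26a was 0.77 to 2.15 in DG and -2.80 to -2.31 in SVZ. Kif26b is the member outside the spindle group whose start region, printed above, holds TTTGAA and CCAAT, and its difference was opposite in sign to that of the spindle motors.

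**Figure D3:**
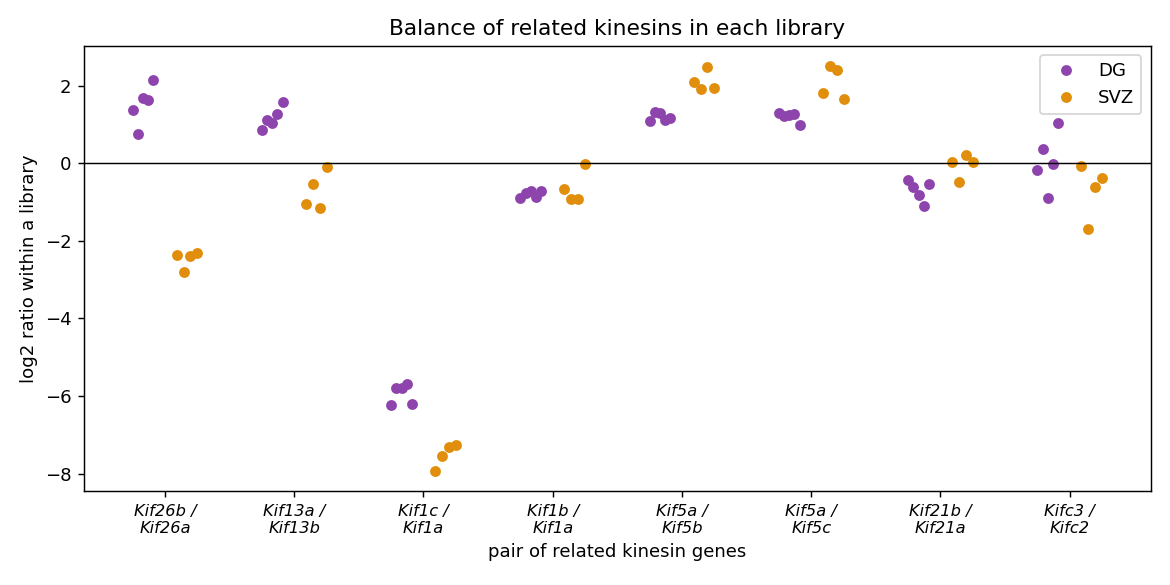
Log2 ratio of related kinesin genes within each library (vertical axis), DG in purple and SVZ in orange, 1 point per library. Kif26b to Kif26a and Kif13a to Kif13b change sign between the regions, whereas Kif1b to Kif1a overlaps.

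Kif2a, a depolymerase that prunes axon branches and also acts at spindle poles, stood at 5.09, 5.53, 5.32, 5.22 and 5.26 log2 CPM in DG and at 6.33, 5.86, 6.03 and 6.59 in SVZ (-0.92, SE 0.15, adjusted p = 0.000269). No DG library reached the SVZ range. Kif21b, which slows microtubule growth, stood at 5.82, 5.83, 5.58, 5.51 and 5.63 in DG and at 6.65, 5.81, 6.27 and 7.07 in SVZ (-0.77, SE 0.21, adjusted p = 0.00719). SVZ 2 lay within the DG range, the only overlap among the members that passed. Kif21a, its relative, stood at 6.26, 6.45, 6.41, 6.63 and 6.17 in DG and at 6.60, 6.28, 6.06 and 7.03 in SVZ (-0.11, SE 0.18, adjusted p = 0.595). Kif1bp, no motor but a protein that binds and restrains kinesins, had a difference of 0.11 (SE 0.25, adjusted p = 0.722).

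Levels can be compared between genes only per length, here as CPM divided by the kilobases of merged exons (RPKM). In DG the most abundant member was Kif1a, at 42.7 ± 2.82 RPKM (SD, n = 5), followed by Kif5a at 27.2 ± 5.17. The spindle motors Kif20a, Kif2c and Kif22 came next, at 17.5 ± 3.17, 16.4 ± 2.88 and 16.2 ± 3.07, which did not differ beyond their SD. In SVZ the order was Kif5a at 86.9 ± 7.88 RPKM (SD, n = 4), then Kif22, Kif2c, Kif20a and Kif1a at 45.5 ± 4.51, 44.1 ± 2.73, 42.7 ± 5.07 and 41.7 ± 5.31, again within their SD of each other. Kif1a thus held the first place in DG and the fifth in SVZ at similar mean levels. The lowest members were Kif19a in DG (0.299 ± 0.10 RPKM) and Kif26b in SVZ (0.112 ± 0.040 RPKM).

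Summed over the members, spindle motors had 84.8, 61.1, 81.3, 99.6 and 89.5 RPKM in DG libraries 1 to 5 and 216.8, 259.1, 218.2 and 222.7 RPKM in SVZ libraries 1 to 4. Cargo motors had 114.6, 109.8, 134.4, 111.7 and 96.1 RPKM in DG and 188.2, 184.6, 189.1 and 184.2 RPKM in SVZ. Within the cargo sum, Kif5a, Kif5b and Kif5c together had 37.5 to 60.7 RPKM in DG and 119.1 to 128.9 RPKM in SVZ, while Kif1a, Kif1b and Kif1c together had 52.6 to 62.3 and 49.9 to 64.7 RPKM. The ratio of the spindle sum to the cargo sum was 0.556 to 0.932 in DG and 1.15 to 1.40 in SVZ. In RPKM, cargo motors thus had the larger sum in every DG library and spindle motors in every SVZ library. DG 2 was at the low end of the ratio and SVZ 2 at the high end. Which sum is larger in SVZ depends on the division by exon length. These lengths merge all transcripts of a gene and reach 17608 bases in Kif1b. Summed as CPM without this division, cargo motors stood above spindle motors in every library, also in SVZ. There the cargo motors Kif5a and Kif1a averaged 9.24 and 8.60 log2 CPM, and Kif22, the highest spindle motor, 7.80. The larger spindle sum in SVZ thus holds for RPKM and not for CPM. Kif20a, of whose exon bases 29.3% overlap Cdc23, is part of the spindle sum.

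**Figure D4:**
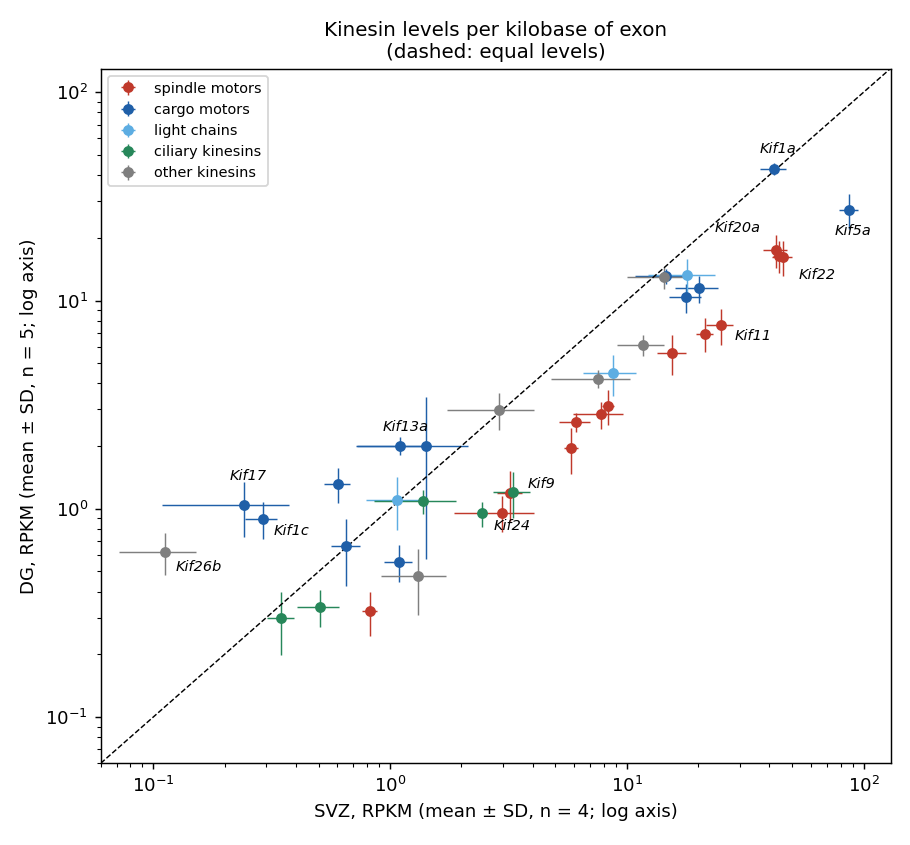
Level of each of the 39 kinesin genes in SVZ (horizontal axis, n = 4) and DG (vertical axis, n = 5) in RPKM on log axes, mean ± SD, coloured by role. The dashed line marks equal levels: all spindle motors lie below it, Kif1a lies on it, and Kif26b, Kif17 and Kif1c lie above it.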

How the data were processed

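The deposited table holds log2 CPM values by the authors, although its name calls them counts. Per the submitters' processing notes, STAR, edgeR and the mm10 build were used; for versions, counter, annotation release and any filter, the entry is: not given in the sources used here. Per the labels' protocols, cDNA was primed with poly-dT, amplified and sheared, with a library kit that does not mark strand. The prior count (1 read) was inferred from the values: whole reads recovered with it gave back every value within 5.33e-14, and 100% of values were whole within 0.01 reads. Every gene exceeded 1 CPM in at least 3 libraries. Identifiers were matched to GENCODE M21 (14433 of 14477), which gave symbols, coordinates (1-based) and merged exon lengths for RPKM.

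For values on a log2 scale limma was chosen (version 3.58.1 in R 4.3.3, prior variance following the mean), fitted to DG (n = 5) against SVZ (n = 4), two-sided, with Benjamini-Hochberg adjustment over all 14477 genes. It was tested first on simulated reads in which few genes changed and all genes had the same dispersion. In the real data 66.6% of genes passed, so that test does not show how the fit performs here. The members, roles and lists were chosen with earlier results of these data known. Any member of the table may be named. Values in every library are given for up to 4 members per role that passed with the largest change and for members that did not pass and averaged 5 log2 CPM or more. Up to 2 genes per direction of the partner lists are named, and Cenpe. Alternatives were limma-voom, no trend, median-of-ratios scaling, a prior count of 5 reads, a filter at 1 log2 CPM on average, the replicate block and each library left out. For 1 member, a result on its overlap with another gene is not reported here.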

Additional observations from a re-analysis of the deposited data

Results flagged for a closer look

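In each region, the highest and lowest library of every named gene was compared with the rest by Dixon's ratio, over 100 groups of 4 or 5 libraries, of which chance sets apart about 1 in 20. Here 4 groups had a library set apart. Kif18b, which works on astral microtubules, stood at 5.23 log2 CPM in SVZ 2 and at 4.55 to 4.66 in the other SVZ libraries. Kif1b stood at 8.04 in DG 3 and at 7.77 to 7.81 in the other DG libraries. The dynein genes Dync1i2 and Dynlt3 stood at 8.92 in SVZ 4 (others 8.80 to 8.81) and at 6.32 in DG 3 (others 6.42 to 6.46).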

How the results depend on the processing

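For 50 named genes under up to 15 alternatives, 727 values kept their direction and side of the threshold, 0 lost a call, 7 gained one and 13 changed sign. The sign changes were all in genes that did not pass. With the replicate block, Kif16b was 0.10. The block takes DG 5 out of the comparison, so its differences equal those without DG 5 and are no separate check. With 1 library left out in turn, Kif16b ranged from -0.22 to 0.10, Klc2 from -0.12 to 0.20, Kif1bp from -0.064 to 0.34, Kif1a from -0.022 to 0.11, Kif1b from -0.26 to 0.01 and Kif21a from -0.26 to 0.066. Without SVZ 4, 2 light chains were lower in DG, and otherwise 1. Leaving out genes under a mean of 1 log2 CPM removed Kif7, Kif19a and Kifc5b, after which the median of ciliary kinesins was -1.38, from -0.58. Same-numbered libraries of the regions did not deviate together (correlations -0.17 to 0.01 over genes). With so few libraries, each centred on its region's mean, this cannot show whether a number marks a shared animal or day. The labels do not say. With the replicate block 4513 genes were higher and 4273 lower in DG, from 4769 and 4873, and all 13 spindle motors stayed lower. No other count of members moved by over 1.5 times. PCR copies were not tagged, so read numbers carry counting error and more, and members with few reads, such as Kif17 and Kif19a, are the least precise.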

Other observations

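The SVZ libraries fell into different orders for different kinesins. SVZ 1 and SVZ 4 were both above SVZ 2 and SVZ 3 for 9 of 39 members, among them Kif1b, Kif2a, Kif5c, Kif21a and Kif21b, and both below for 6, among them Kif5a, Klc2 and Klc4. Over all genes the shares were 26.2% and 23.4%, so the members (23.1% and 15.4%) did not stand apart from the table in this. The spindle motors held 1 gene of each kind, Kifc5b and Kif22. The split was noticed in the data and was not tested.

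The depolymerase Kif2a fell less than the neuroblast gene Dcx between the regions. Their log2 ratio was -3.04 to -2.28 in DG and -4.12 to -3.87 in SVZ, without overlap. The ratio of the spindle depolymerase Kif2c to Kif2a was 0.21 to 1.20 in DG and 1.02 to 1.83 in SVZ, with overlap.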
